A study of Mus musculus with 28 samples.

Results

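The genes described here build fatty acids and cholesterol in the liver cell or control that synthesis. They are 35 genes chosen by name, out of 18182 genes in the deposited table, and all 35 were found there and passed the filter on low counts. They fall into a fatty acid branch of 15 genes and a sterol branch of 20 genes. The samples were livers of mice labelled as c-Myc/Alb-cre transgenic, so tumour and peritumour libraries alike come from animals with c-Myc as a transgene and with Cre recombinase under the albumin promoter, which is active in hepatocytes. RNA sequencing gave 28 libraries in 4 groups: 11 of hepatocellular carcinoma tissue (Tu_F) and 11 of peritumour tissue (Pe_F) with the letter F in their titles, and 3 tumour (Tu_M) and 3 peritumour (Pe_M) libraries with the letter M. The labels do not say what F and M stand for, give no age, and hold no liver without the transgene. A title code joins each tumour library to 1 peritumour library. Read as the animal, it gives 14 pairs, called F1 to F11 and M1 to M3 after their replicate numbers. The codes are written in 2 styles, the first in F1 to F3 and M1 to M3 (6 pairs) and the second in F4 to F11 (8 pairs). The labels do not say what the style stands for. Library totals were 14777567 to 17576921 estimated counts, so depth differed little between libraries.

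Fatty acid synthesis starts from acetyl-CoA in the cytosol, which Acly makes from citrate and Acss2 from acetate. Acaca turns it into malonyl-CoA, Fasn joins the units into palmitate with NADPH from enzymes such as Me1, and elongases and desaturases shape the product. The sterol pathway also starts from acetyl-CoA, runs through mevalonate and isoprenoids to squalene and lanosterol, and ends in cholesterol. Srebf1 and Srebf2 encode the transcription factors SREBP-1 and SREBP-2, which in textbook accounts drive mainly the fatty acid and mainly the sterol genes. Insig1 and Insig2 hold the SREBP precursors in the endoplasmic reticulum when sterols are plentiful.

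Tumour was compared with peritumour tissue of the same animal. In this comparison 12 of the 35 genes passed the test (34.3%, against 11.5% of the 14117 genes tested), 11 lower in tumour and 1 higher. In the fatty acid branch 5 of 15 were lower and none was higher: Acss2, Elovl5, Elovl6, Thrsp and Scd1. In the sterol branch 6 of 20 were lower (Hmgcs1, Sc5d, Insig2, Idi1, Insig1 and Hsd17b7) and 1 was higher (Srebf2). Of all genes tested, 5.91% were lower and 5.59% higher (835 and 789 genes). With library size alone in place of TMM scaling that split was 677 lower and 1151 higher, while 11 of the 35 genes were lower and 2 higher, Scd2 in addition to Srebf2. The falls were of modest size, from 0.31 to 0.84 on the log2 scale. The median log2 fold change was -0.15 over the fatty acid branch, -0.07 over the sterol branch and -0.01 over all genes tested. The enzymes alone gave the same medians, with 4 of 11 fatty acid enzymes and 4 of 16 sterol enzymes lower. In bulk tissue, fewer hepatocytes and less RNA per hepatocyte cannot be told apart. All of these calls rest on the pairing. Without the animal as a block, edgeR called 0 of the 35 genes and 148 of all genes (1.05%). An unadjusted edgeR p under 0.05 was found for 8 of the 35, beside 2672 of all 14117 genes. The smallest edgeR adjusted p among the 35 was 0.0942, for Srebf2.

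**Figure D1:**
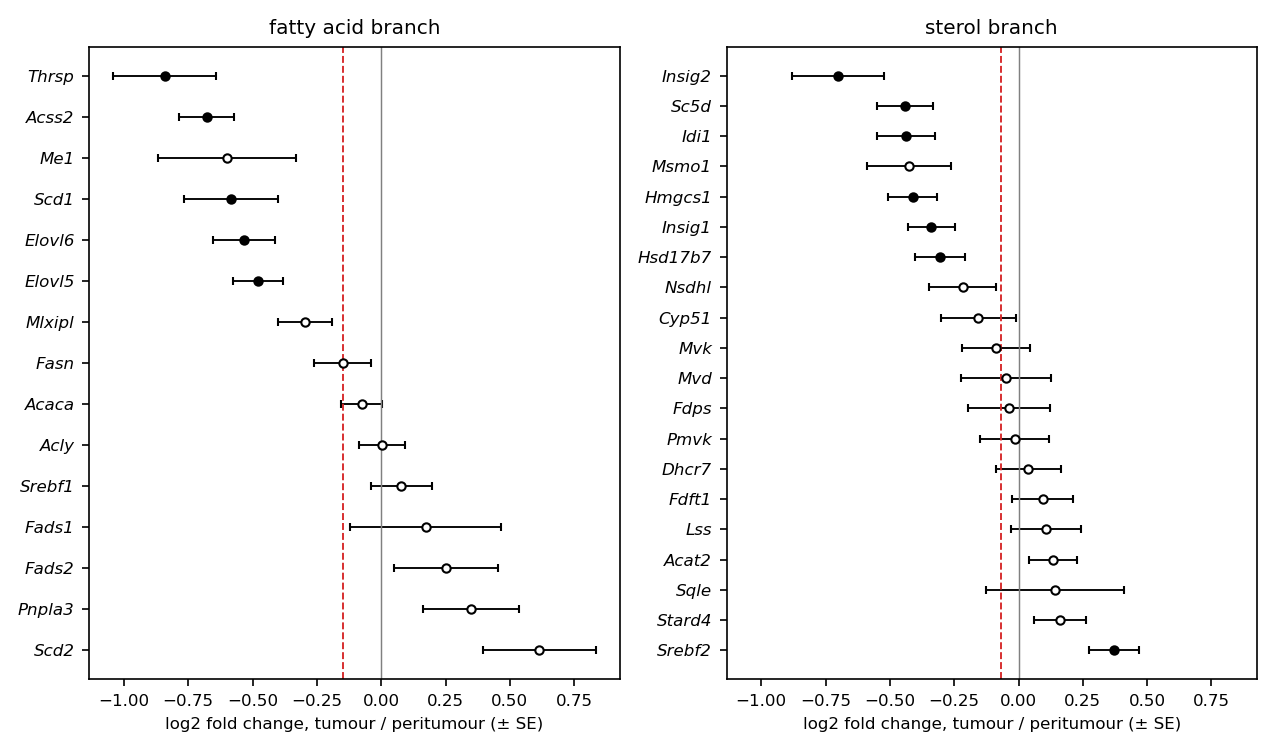
Log2 fold change of tumour over peritumour tissue (x axis) for each gene of the fatty acid branch (left) and the sterol branch (right), with standard errors as bars, from the paired edgeR fit of 14 animals. Filled points have an adjusted p under 0.05, the grey line marks 0 and the red dashed line the median of the branch (-0.15 and -0.07); each branch runs from clear falls to genes above 0, and Srebf2 is the only filled point to the right.

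Promoters of the clearest members are shown because the branches are textbook targets of shared promoter-bound factors. RefSeq (GRCm38.p6) gave promoters for 28 of the 35 genes, and the 250 bases upstream of each start were searched on both strands for 4 motifs. They were a sterol regulatory element spelled TCACNCCAC, the E-box spelled CACGTG, the pentamer CCAAT, and the GC box, which has the letters GGGCGG. The pentamer was in 15 of 16 sterol genes (93.8%) and 8 of 12 fatty acid genes (66.7%), against 40.4% of the tested genes with a promoter. The GC box was in 15 of 16 (93.8%) and 7 of 12 (58.3%), against 60.5%. E-boxes were in 4 of 16 (25%) and 2 of 12 (16.7%), against 9.5%. The sterol regulatory element, in this single spelling, was in 1 of 16 (6.25%), Hmgcs1, and 1 of 12 (8.33%), Mlxipl, against 1.27%. Among all 32851 promoter windows of this length, 33.8% held CCAAT, 32.7% the GC box, 6.02% the E-box and 1.05% the sterol regulatory element. A match is a run of letters and not a measured site. The windows below belong to the 2 genes of each branch with the smallest adjusted p among those with a promoter, and to Srebf2, added after its values were seen because it is the only gene that rose. They are read 5′ to 3′ on the strand of the gene, in GRCm38.p6: Acss2 at chr2:155517793-155518042 (+ strand), Elovl5 at chr9:77917115-77917364 (+), Hmgcs1 at chr13:119690101-119690350 (+), Sc5d at chr9:42264301-42264550 (- strand) and Srebf2 at chr15:82147019-82147268 (+). Capitals mark the 4 motifs in either orientation, and no match in these windows overlaps another.
Acss2: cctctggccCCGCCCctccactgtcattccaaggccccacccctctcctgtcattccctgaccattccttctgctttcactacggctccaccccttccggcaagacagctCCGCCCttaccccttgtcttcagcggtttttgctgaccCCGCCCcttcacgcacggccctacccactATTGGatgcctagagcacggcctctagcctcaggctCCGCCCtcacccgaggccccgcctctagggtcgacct
Elovl5: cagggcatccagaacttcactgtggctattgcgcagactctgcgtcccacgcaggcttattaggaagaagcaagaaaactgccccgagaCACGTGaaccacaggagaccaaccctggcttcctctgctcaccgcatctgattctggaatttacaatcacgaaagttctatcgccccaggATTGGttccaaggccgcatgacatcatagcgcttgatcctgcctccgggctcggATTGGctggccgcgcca
Hmgcs1: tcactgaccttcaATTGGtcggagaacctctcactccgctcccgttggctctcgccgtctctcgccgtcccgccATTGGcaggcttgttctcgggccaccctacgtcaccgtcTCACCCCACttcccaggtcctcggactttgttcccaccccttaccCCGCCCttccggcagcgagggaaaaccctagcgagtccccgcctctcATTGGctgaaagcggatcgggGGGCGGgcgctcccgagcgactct
Sc5d: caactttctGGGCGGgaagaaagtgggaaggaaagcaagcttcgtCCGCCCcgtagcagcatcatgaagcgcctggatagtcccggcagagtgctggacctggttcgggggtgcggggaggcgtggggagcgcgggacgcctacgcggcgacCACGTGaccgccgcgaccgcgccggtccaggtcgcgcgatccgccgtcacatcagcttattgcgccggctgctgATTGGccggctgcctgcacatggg
Srebf2: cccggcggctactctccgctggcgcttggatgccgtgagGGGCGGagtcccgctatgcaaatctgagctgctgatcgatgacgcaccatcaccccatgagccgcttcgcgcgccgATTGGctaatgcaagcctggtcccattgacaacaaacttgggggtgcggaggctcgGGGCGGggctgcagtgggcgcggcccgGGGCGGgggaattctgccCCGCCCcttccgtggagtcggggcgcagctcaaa
Acss2 and Srebf2 each hold 4 GC boxes and 1 CCAAT. Whether motifs go with the direction of change was not tested. Elovl5 holds 1 E-box and 2 CCAAT with no GC box. Hmgcs1 holds the sterol regulatory element with 3 CCAAT and 2 GC boxes, and Sc5d holds 1 E-box, 1 CCAAT and 2 GC boxes.

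In acetyl-CoA supply the genes of the citrate and the acetate route differed. Acss2 (chr2:155517953-155562746 in GRCm38, as are all gene positions below, from the deposited table) had 22.8 to 154 counts per 1000000 counts of the library (CPM; median 84.1) in peritumour tissue and 17.7 to 106 CPM (median 47.0) in tumour. The ranges overlapped, but the tumour library was below its own peritumour library in 14 of 14 animals. Counts of animals, here and below, compare CPM without further scaling. In F11 Acss2 differed by only -0.04 in log2 CPM, beside a median of -0.21 over all tested genes. The paired log2 fold change was -0.68 ± 0.11 (SE; edgeR adjusted p = 0.0018), the smallest adjusted p among the 35 genes. Exons of Acss2 share 152 bases with Acss2os and 13 bases with Gss on the other strand, and reads there cannot be told apart, since the sources used here give no strand setting for the counting. Acly, the citrate lyase, had a log2 fold change of 0.00 ± 0.09 (edgeR adjusted p = 0.992) and was lower in 8 of 14 animals.

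The core synthesis enzymes did not pass. Fasn had 678 to 1947 CPM (median 996) in peritumour tissue and 630 to 1602 CPM (median 880) in tumour. It was lower in 10 of 14 animals, with a log2 fold change of -0.15 ± 0.11 (edgeR adjusted p = 0.389). Acaca, which makes malonyl-CoA, gave -0.08 ± 0.08 (edgeR adjusted p = 0.567). Me1, a cytosolic malic enzyme that yields NADPH, had a log2 fold change of -0.60 ± 0.27 (edgeR adjusted p = 0.154), with the animals far apart. It went from 330 to 36.2 CPM in F7 and from 323 to 40.3 CPM in M2, differences of -3.18 and -3.00 in log2 CPM. In the other 12 animals the difference lay between -0.88 and 0.83. Me1 shares 30 exon bases with A330041J22Rik on the other strand.

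Both elongases of the branch, Elovl5 and Elovl6, fell. Elovl5, which elongates polyunsaturated fatty acids (chr9:77917365-77984519), had 117 to 580 CPM (median 282) in peritumour tissue and 110 to 403 CPM (median 231) in tumour. Every animal had less in its tumour, and the log2 fold change was -0.48 ± 0.10 (edgeR adjusted p = 0.0077). In F1 the difference was only -0.03 in log2 CPM, beside a median of -0.07 over all tested genes. Elovl6, which extends palmitate and its monounsaturated form (chr3:129532252-129641930), had 32.9 to 125 CPM (median 87.3) and 22.8 to 105 CPM (median 74.2). In 12 of 14 animals it was lower, by 0.53 ± 0.12 on the log2 scale (edgeR adjusted p = 0.0125). The exceptions were F1 and F6, with differences of 0.17 and 0.10. Elongases read outside the branch did not pass in the same fit. Elovl2, with means of 478.6 CPM in peritumour tissue and 498.8 CPM in tumour, gave -0.01 ± 0.12 (edgeR adjusted p = 0.966). Elovl1 gave -0.001 ± 0.08 (edgeR adjusted p = 0.995) and Elovl7 0.05 ± 0.16 (edgeR adjusted p = 0.853). The scarce Elovl3 (means 2.126 and 1.275 CPM) gave -0.98 ± 0.46 (edgeR adjusted p = 0.171).

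Among the desaturases, Scd1 and Scd2 went apart. Both put the first double bond into saturated fatty acids, Scd1 is the main form of adult liver, and the 2 genes are close paralogs, so the division of reads between them is uncertain. Scd1 (chr19:44394450-44408816) had 353 to 6506 CPM (median 2192) in peritumour tissue and 610 to 4455 CPM (median 1464) in tumour. It was lower in 13 of 14 animals, with F5 the exception, and its log2 fold change was -0.58 ± 0.18 (edgeR adjusted p = 0.0462). Of the 14 fits that left out 1 pair, 10 lost this call (edgeR adjusted p up to 0.0887), and only those without F1, F4, F5 or F11 kept it. Scd2 (chr19:44293143-44306864) had 169 to 1239 CPM (median 354) in peritumour tissue and 233 to 1880 CPM (median 638) in tumour. Its log2 fold change was 0.61 ± 0.22 and did not pass (edgeR adjusted p = 0.0771). With DESeq2, which called 16.9% of all genes, it did (adjusted p = 0.0218). Scd2 was higher in 10 of 11 F animals, all but F7, and lower in all 3 M animals. Fads1 and Fads2, the desaturases of polyunsaturated fatty acids, gave 0.17 ± 0.29 (edgeR adjusted p = 0.736) and 0.25 ± 0.20 (edgeR adjusted p = 0.434). Fads1 spread most, from -2.30 in M3 to 2.26 in F1, and Fads2 had its lowest difference in M3 (-1.41) and its highest in F1 (1.60) too.

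Of the fatty acid regulators only Thrsp passed. Thrsp encodes a small protein induced together with lipogenesis by thyroid hormone and carbohydrate (chr7:97412933-97417550). It had 24.6 to 340 CPM (median 209) in peritumour tissue and 29.2 to 283 CPM (median 109) in tumour. Lower in 13 of 14 animals, it fell by 0.84 ± 0.20 on the log2 scale (edgeR adjusted p = 0.015), the largest fall among the 35 genes. F5 again was the exception, with a rise of 0.82 from the lowest peritumour level of all. Mlxipl, which encodes the carbohydrate-responsive factor ChREBP, gave -0.29 ± 0.10 and did not pass (edgeR adjusted p = 0.075), though it did with DESeq2 (adjusted p = 0.0389). Srebf1 gave 0.08 ± 0.12 (edgeR adjusted p = 0.697) and was higher in 9 of 14 animals, and it shares 109 exon bases with Rai1 on the other strand. Pnpla3, a lipid droplet protein and a textbook target of SREBP-1, was the scarcest gene of the branch, with 3.27 to 18.4 CPM in peritumour tissue, and gave 0.35 ± 0.19 (edgeR adjusted p = 0.23).

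**Figure D2:**
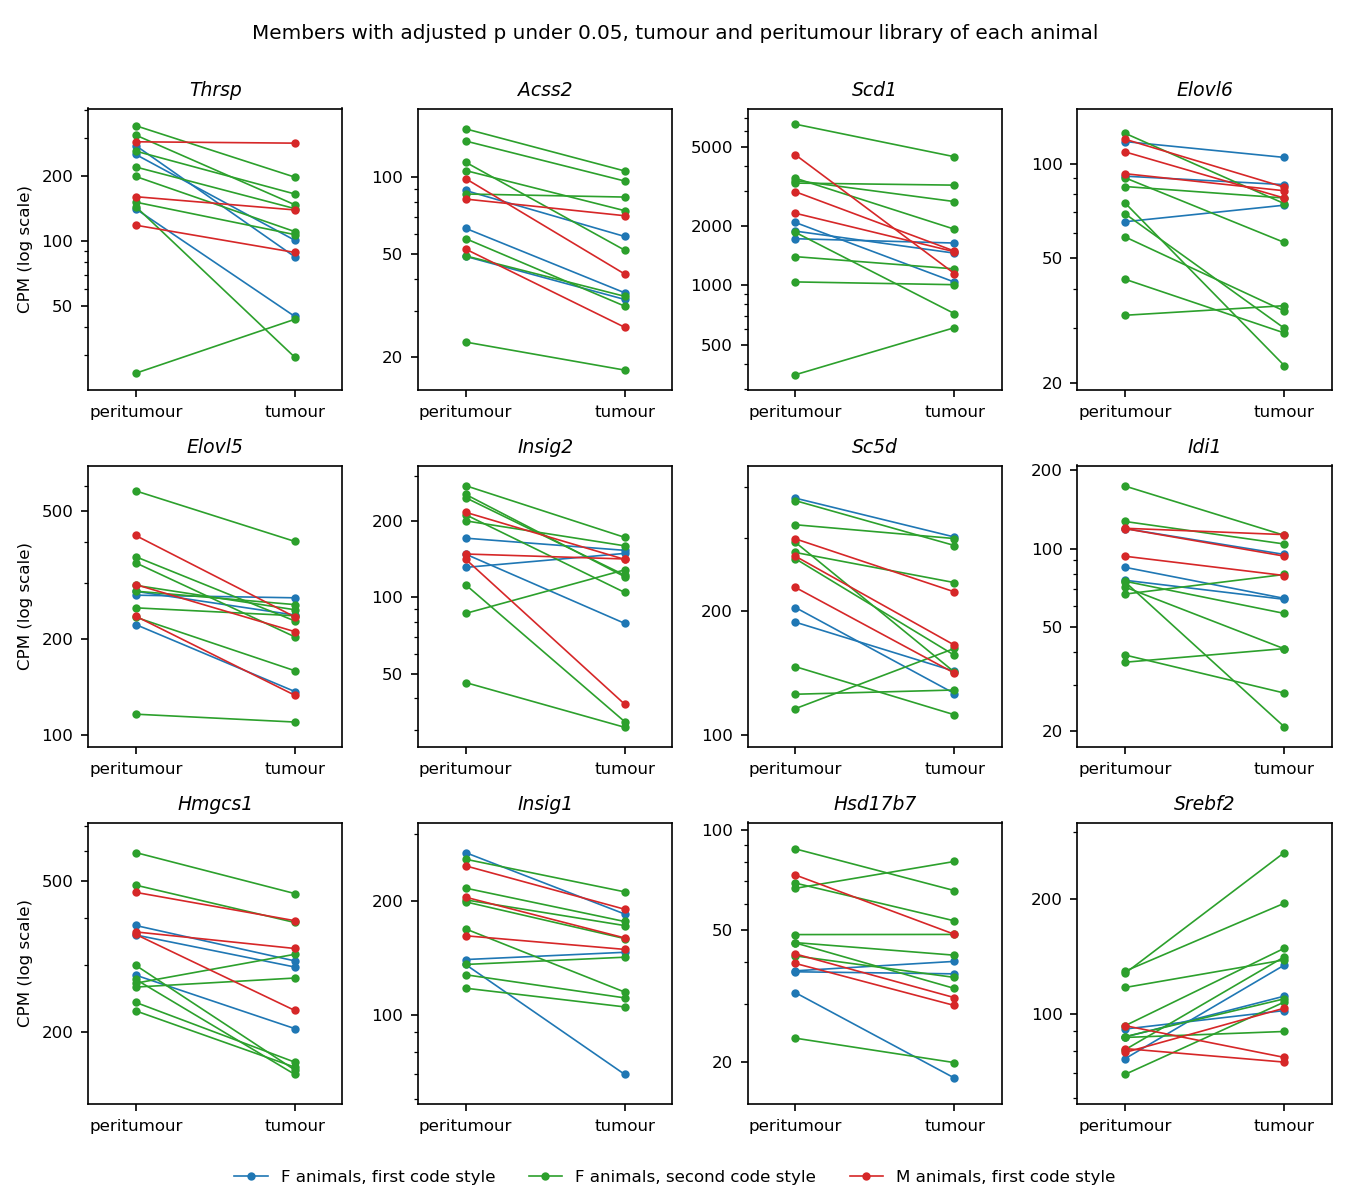
CPM on a log scale (y axis) of the 12 genes with an adjusted p under 0.05, in the peritumour and the tumour library of each of 14 animals; each line joins the 2 libraries of 1 animal and its colour gives the letter and code style. The lines of Acss2 and Elovl5 all fall, those of Srebf2 rise in 12 of 14 animals, and the levels of the 2 tissues overlap in each of the 12 genes.

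In the upper sterol pathway, from acetyl-CoA to farnesyl diphosphate, 2 of 7 genes fell. Hmgcs1, which makes HMG-CoA (chr13:119690351-119708260), had 227 to 594 CPM (median 330) in peritumour tissue and 155 to 463 CPM (median 287) in tumour. All animals but F5 and F9 (12 of 14) had less in the tumour, with a log2 fold change of -0.41 ± 0.09 (edgeR adjusted p = 0.0126). Its exons share 557 bases with Gm48342 on the other strand. Idi1, which isomerises isopentenyl diphosphate (chr13:8884914-8892396), had 36.6 to 174 CPM (median 80.1) and 20.7 to 113 CPM (median 71.6). Lower in 12 of 14 animals, it fell by 0.44 ± 0.11 on the log2 scale (edgeR adjusted p = 0.0208), and shares 323 exon bases with Gm48574. The enzymes between these steps and beside them did not pass. Acat2, which joins acetyl-CoA units, gave 0.13 ± 0.09. The mevalonate kinases Mvk and Pmvk gave -0.09 ± 0.13 and -0.02 ± 0.13, the decarboxylase Mvd -0.05 ± 0.17 and the farnesyl diphosphate synthase Fdps -0.04 ± 0.16. Their edgeR adjusted p ran from 0.357 for Acat2 to 0.953 for Pmvk.

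The squalene and lanosterol steps held no change that passed. Sqle, the squalene epoxidase, had 14.8 to 99.8 CPM (median 42.4) in peritumour tissue and 11.3 to 142 CPM (median 46.5) in tumour. Its log2 fold change was 0.14 ± 0.27 (edgeR adjusted p = 0.763), with single animals from -1.32 in F10 to 3.25 in F5. Fdft1, the squalene synthase, gave 0.09 ± 0.12 (edgeR adjusted p = 0.638). Fdft1 shares 774 exon bases with Ctsb on the other strand. Lss, which closes the rings of lanosterol, gave 0.11 ± 0.14 (edgeR adjusted p = 0.639) and shares 381 exon bases with 4930483K19Rik.

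From lanosterol to cholesterol 2 of 6 genes fell. Sc5d, a desaturase of the sterol nucleus (chr9:42251592-42264300), had 116 to 375 CPM (median 269) in peritumour tissue and 112 to 302 CPM (median 159) in tumour. The tumour level was lower in 12 of 14 animals, by 0.44 ± 0.11 on the log2 scale (edgeR adjusted p = 0.0177). The exceptions were F5, with 0.49, and F6, with 0.03. Hsd17b7, a ketosteroid reductase of the demethylation steps (chr1:169949535-169969240), had 23.7 to 87.6 CPM (median 44.0) and 17.96 to 80.3 CPM (median 38.6). It was lower in 11 of 14 animals, by 0.31 ± 0.10 on the log2 scale (edgeR adjusted p = 0.0494), and passed in only 3 of the 14 fits without 1 pair, those without F1, F3 or F5 (edgeR adjusted p up to 0.109 in the others). Msmo1 and Nsdhl, which work in the same demethylation, did not pass. Msmo1 was lower in 12 of 14 animals (-0.42 ± 0.16, edgeR adjusted p = 0.0987), and Nsdhl in 13 of 14 (-0.22 ± 0.13, edgeR adjusted p = 0.292). Without F5, where they were higher by 1.37 and 1.5 in log2 CPM, both passed, with -0.54 (edgeR adjusted p = 0.0123) and -0.33 (edgeR adjusted p = 0.0149). Cyp51, the lanosterol demethylase, gave -0.16 ± 0.15 (edgeR adjusted p = 0.506) and shares 166 exon bases with Akap9. Dhcr7, the reductase of the last step, gave 0.04 ± 0.13 (edgeR adjusted p = 0.868) and was higher in 7 of 14 animals.

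The sterol regulators moved in opposite directions. Srebf2 (chr15:82147269-82205379) had 69.3 to 129 CPM (median 86.9) in peritumour tissue and 74.6 to 265 CPM (median 110) in tumour. It was higher in 12 of 14 animals, all but M1 and M3, with a log2 fold change of 0.37 ± 0.10 (edgeR adjusted p = 0.0220). Insig2 (chr1:121304353-121332589) had 46.2 to 275 CPM (median 159) in peritumour tissue and 30.8 to 172 CPM (median 125) in tumour. It was lower in 12 of 14 animals, by 0.70 ± 0.18 on the log2 scale (edgeR adjusted p = 0.0204), the largest fall of the branch. Insig1 (chr5:28071412-28078662), itself a textbook target of SREBP-2, had 118 to 268 CPM (median 184) and 69.9 to 211 CPM (median 154). Like Insig2 it was lower in 12 of 14 animals, by 0.34 ± 0.09 on the log2 scale (edgeR adjusted p = 0.0257), and did not pass without F8 or without M3. Neither Srebf2 nor Insig2 passed without F2, F5 and F6 together, with 0.30 (edgeR adjusted p = 0.0609) and -0.55 (edgeR adjusted p = 0.063). Those 3 pairs carried more RNA of granulocyte precursors (Mpo, Elane, Prtn3 and Ctsg summed: 32.3 to 78.7 CPM, against 1.83 to 40.2 CPM in the other 22 libraries), whose part in these results was not tested. Stard4, a sterol carrier in the cytosol, gave 0.16 ± 0.10 (edgeR adjusted p = 0.307).

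The genes differed widely in how far peritumour livers lay apart. The highest peritumour library exceeded the lowest by 18.4 times for Scd1 and 13.8 times for Thrsp, but by 1.76 times for Fdft1 and 1.87 times for Srebf2. F8 had the highest peritumour level of 20 of the 35 genes (9 fatty acid and 11 sterol genes) and F5 the lowest of 16 (9 fatty acid and 7 sterol genes), among them Scd1, Thrsp, Fasn, Acss2, Fdps and Sqle. In TPM, a unit that allows for gene length, peritumour medians ran from 737 TPM for Scd1, 347 TPM for Thrsp and 288 TPM for Fads2 down to 3.11 TPM for Pnpla3 in the fatty acid branch. In the sterol branch they ran from 218 TPM for Fdps, 158 TPM for Sc5d and 153 TPM for Hmgcs1 down to 14.4 TPM for Lss. The range of the lowest and the highest genes was therefore wider in the fatty acid branch.

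**Figure D3:**
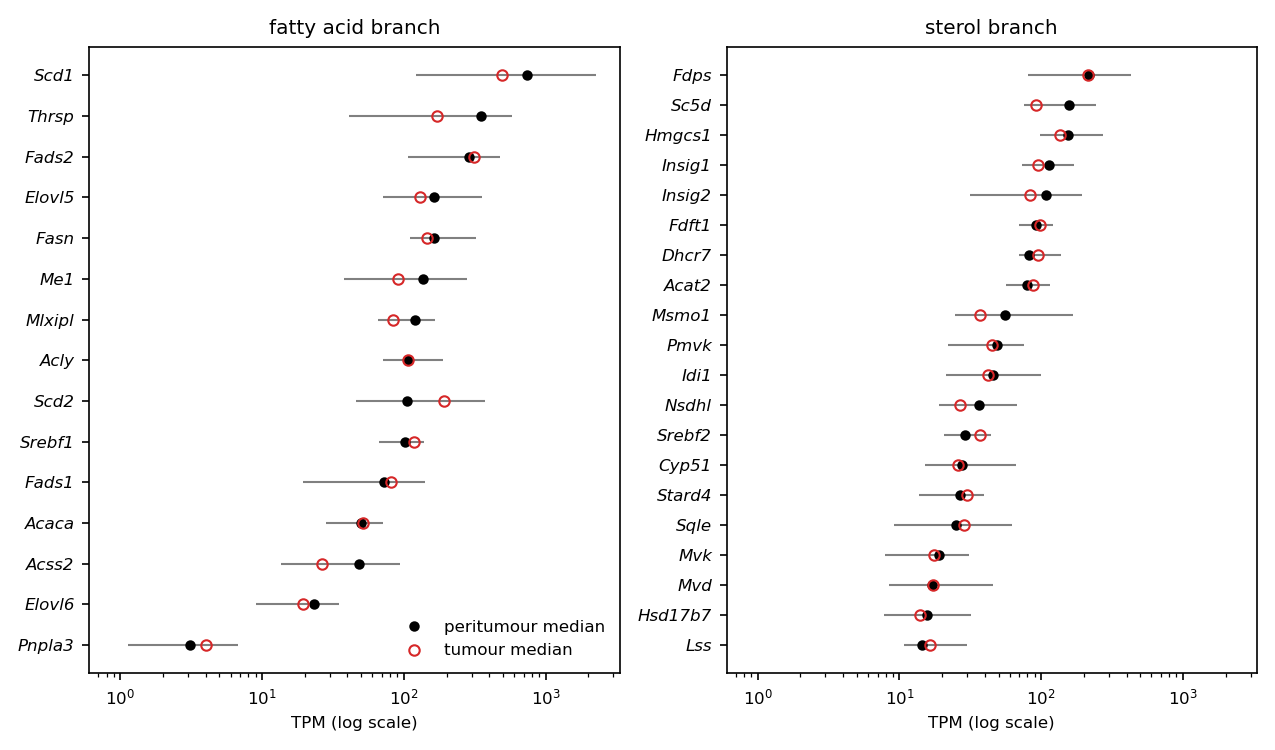
Median TPM (x axis, log scale) of each gene in 14 peritumour (filled) and 14 tumour (open) libraries, fatty acid branch left and sterol branch right; the grey lines span the lowest to the highest peritumour library. Scd1 and Thrsp have both the highest medians and the widest spans of the fatty acid branch, and Fdps the highest median of the sterol branch.

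**Figure D4:**
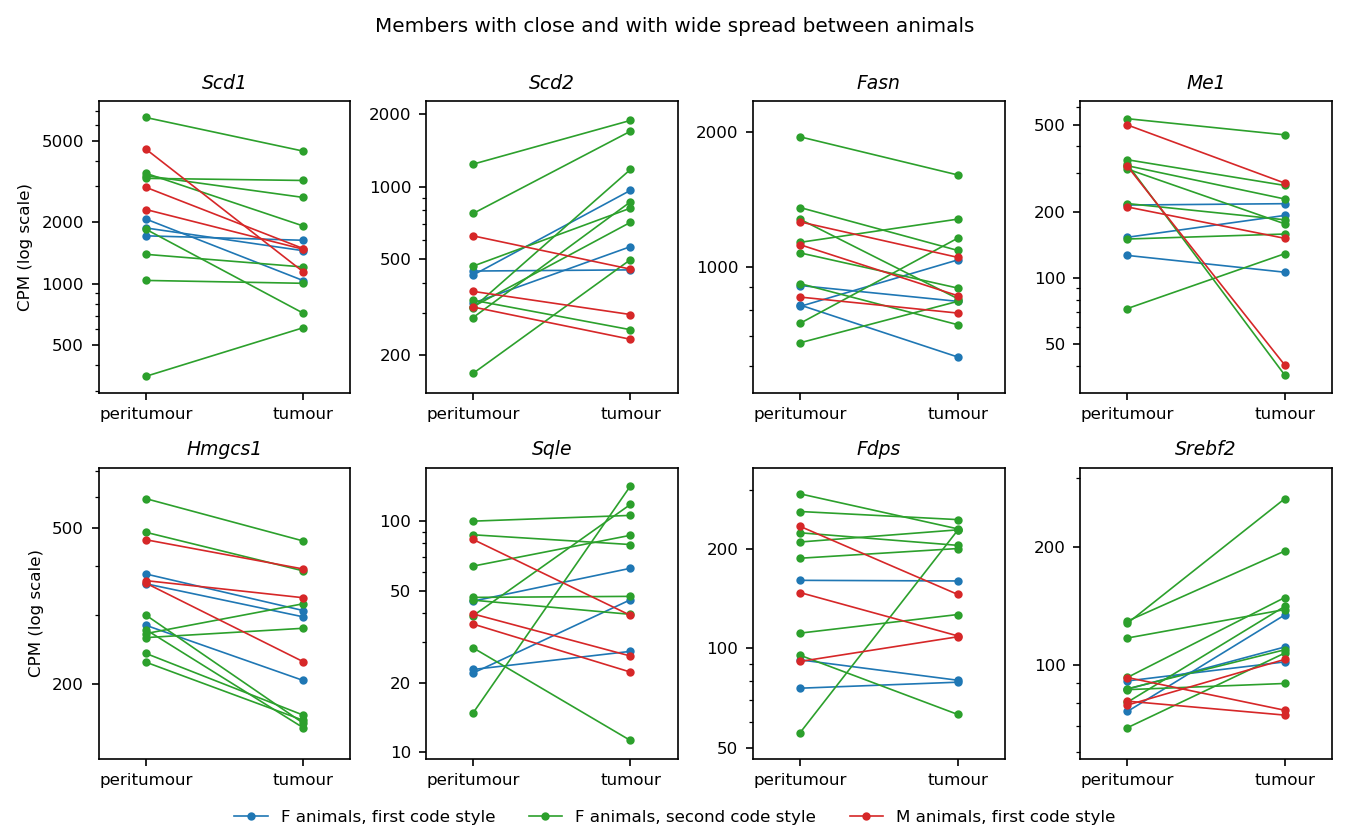
CPM on a log scale (y axis) of 8 genes in the peritumour and the tumour library of each animal, 1 line per animal, coloured by letter and code style. Scd2 falls in all 3 M animals and rises in 10 of 11 F animals, Me1 drops steeply in F7 and M2, and Sqle and Fdps rise steeply in F5.

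Animals were also compared by the median difference over each branch, in log2 CPM without further scaling. The fatty acid median was below 0 in 12 of 14 animals (mean -0.15, SD 0.26) and the sterol median in 11 of 14 (mean -0.12, SD 0.30). The branch means lay close together. These SDs belong to each branch and not to the difference between the branches within an animal, which was not tested. F5 stood apart from the others, with a sterol median of 0.69, 19 of 20 sterol genes higher and 11 of 15 fatty acid genes higher. There Sqle rose from 14.8 to 142 CPM, Fdps from 55.8 to 227 CPM and Mvd from 10.7 to 40.1 CPM, whereas Insig2 differed by -0.58 and Acss2 by -0.36. M3 lay at the other end, with 18 of 20 sterol and 14 of 15 fatty acid genes lower and medians of -0.59 and -0.46. In 3 animals the branch medians had opposite signs. F1 had a fatty acid median of 0.12 and a sterol median of -0.10, F6 had -0.19 and 0.17, and F7 had -0.32 and 0.06. The median over all tested genes was 0.36 in F2 and -0.21 in F11, so their values are best read against that shift, and it lay between -0.07 and 0.11 in the other 12 animals. Without F5, 8 sterol genes were lower in place of 6 and the sterol median was -0.17.

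**Figure D5:**
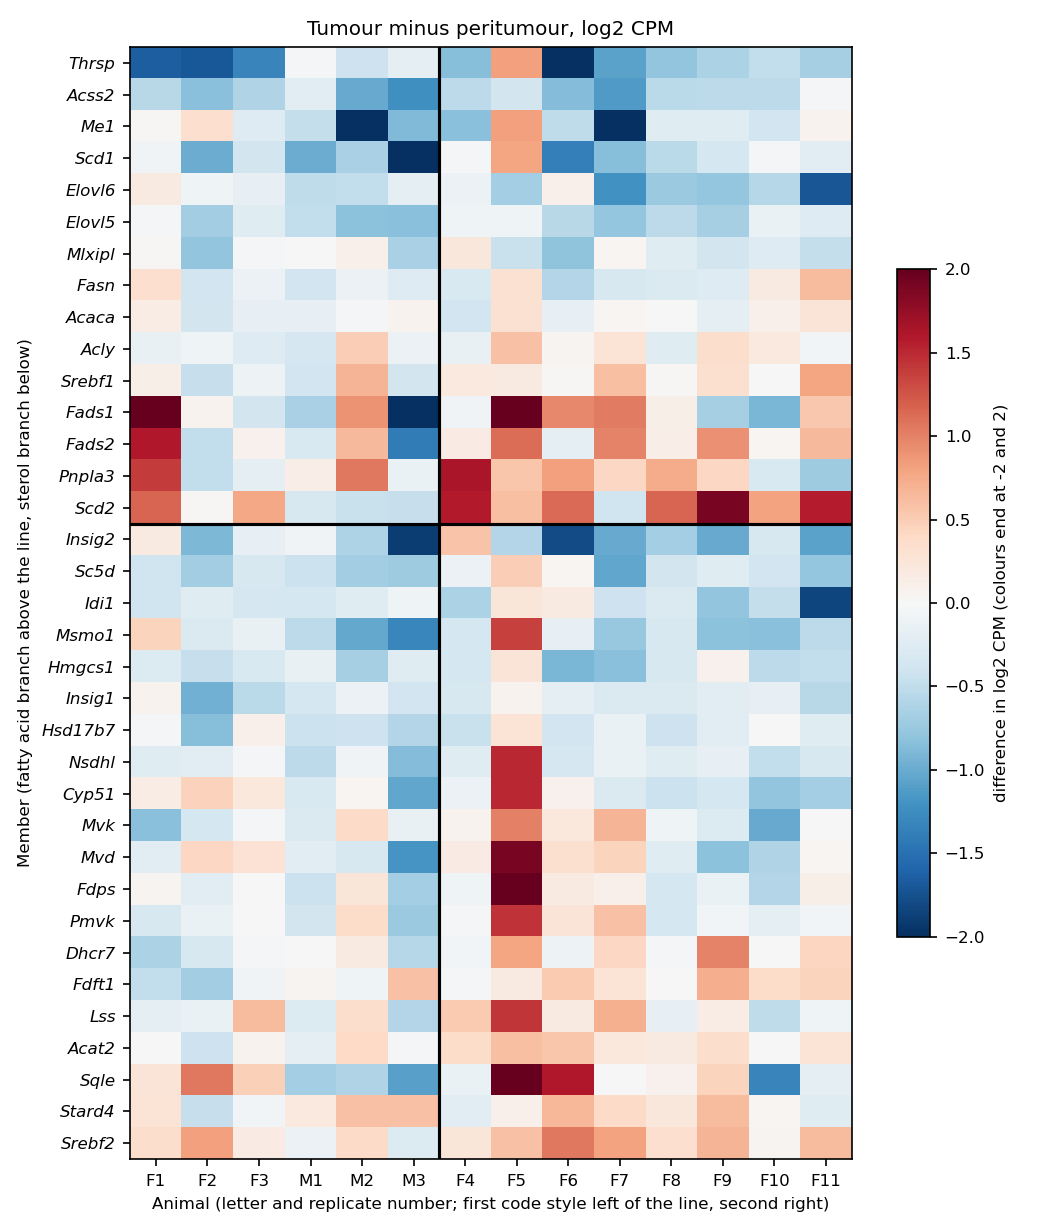
Tumour minus peritumour difference in log2 CPM (colour, ending at -2 and 2) for each gene (rows, fatty acid branch above the line) and each animal (columns, first code style left of the line). The column of F5 is red over most of the sterol branch, the row of Acss2 is blue throughout, and Scd2 is blue in M1, M2 and M3.

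Within tissues the sterol genes varied together more than the fatty acid genes. Over 14 peritumour libraries the median Spearman rho between 2 sterol genes was 0.44 (172 of 190 gene pairs above 0), between 2 fatty acid genes 0.21 (72 of 105) and across the branches 0.27 (219 of 300). In tumour the medians were 0.41, 0.12 and 0.10. For the differences within animals they were 0.24, 0.21 and 0.11. These are descriptions over 14 points, which share library composition, and no test was made of them. Of the 35 genes, Pmvk and Acss2 had the highest median rho with the sterol genes in peritumour tissue, 0.74 and 0.71, although Acss2 belongs to the fatty acid branch. Scd2 had the lowest, -0.41.

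Regulators and enzymes were also set against each other over the 14 animals, for 8 gene pairs. None of the 8 relations between differences passed (permutation test, smallest adjusted p 0.445 for Pearson's r and 0.431 for Spearman's rho). The largest r was 0.45 for Srebf1 with Fasn (rho 0.40, permutation p = 0.109 and 0.162), which was 0.20 without M2 and F11, 0.53 in the first code style and 0.46 in the second. Srebf2 and Hmgcs1 had r = -0.34 (rho -0.41, permutation p = 0.23 and 0.15), which was -0.10 without M3 and F6, -0.65 in the first code style and -0.28 in the second. Hmgcs1 and Fasn, an enzyme of each branch, had r = 0.28 (rho 0.27, permutation p = 0.334 and 0.34), which was -0.15 without F5 and F6. On TMM-scaled values the 3 relations had r = 0.63, -0.25 and 0.49.

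Each code style was also taken alone. In the first style alone 18 of 20 sterol and 13 of 15 fatty acid genes had a log2 fold change below 0, beside 47.3% of all genes. The medians were -0.29 and -0.23, beside 0.01 for all genes. There edgeR called no gene of 13663 (0%; 12 of the 35 genes, all lower, and 1199 of all genes had an unadjusted p under 0.05). In the second style alone the sterol median was 0.11 and the fatty acid median -0.08, beside -0.01 for all genes, and 7.51% of 13055 genes were called. There Acss2 and Elovl6 were lower, and Scd2 (1.05, edgeR adjusted p = 0.0245), Srebf2 (0.55, edgeR adjusted p = 0.0184) and Acat2 were higher. The difference between the styles was tested as an interaction, added after these values were seen. It was positive for 32 of the 35 genes, beside 6982 of all 14117, and for 27 of 35 in F pairs alone, but called none of the 35, and none of all genes (0%; 1070 at an unadjusted p under 0.05; DESeq2 called 2). The smallest p among the 35 was 0.0093, for Dhcr7 (0.62 ± 0.21, edgeR adjusted p = 0.652). All M animals have the first style, so letter and style cannot be told apart for them beyond the 3 F animals of that style.

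The same question was put to the letters. The interaction of tissue and letter called no gene (0%; 1001 at an unadjusted p under 0.05; DESeq2 called 0), and 26 of the 35 genes had a lower tumour difference in M than in F animals, beside 49.1% of all genes. The medians of this difference were -0.18 for the fatty acid and -0.28 for the sterol branch, and without M3 they were -0.01 and -0.06, with 21 of 35 lower. This fit had no term for code style. Between F and M animals of the first style alone the medians were -0.15 and -0.14. There 21 of 35 were lower, beside 50.7% of all genes. In the fit of all animals Scd2 had the smallest p among the 35 genes. Its peritumour levels in M1, M2 and M3 were 369, 318 and 625.6 CPM, and its tumour levels 296, 233 and 456 CPM. In F libraries it had a mean of 465 ± 299 CPM (SD, n = 11) in peritumour tissue and 898 ± 511 CPM (SD, n = 11) in tumour. The M minus F difference of its log2 fold change was -1.36 ± 0.42 (edgeR adjusted p = 0.688, unadjusted 0.0047). In F animals alone Scd2 was higher in tumour by 0.91 (edgeR adjusted p = 0.0174). Srebf2 had the next smallest p, with a difference of -0.53 ± 0.20 (edgeR adjusted p = 0.688). Its peritumour levels in M1, M2 and M3 were 80.9, 79.1 and 93.0 CPM and its tumour levels 74.6, 103 and 76.7 CPM, so only M2 had more in its tumour.

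Comparisons between the letters within a tissue called none of the 35 genes. In peritumour tissue, with code style as a covariate, 34 of 35 had a value above 0 for Pe_M over Pe_F, with medians of 0.36 and 0.34 for the fatty acid and the sterol branch, beside -0.02 for all genes. Of all 14117 genes 6643 were above 0. Without M3 the medians were 0.09 and 0.09, with 24 of 35 above 0, beside 6133 of all 14360 genes. Without the covariate they were 0.13 and 0.02, with 21 of 35 above 0, beside 6830 of all 14117. The covariate takes the style effect as equal in both tissues. In libraries of the first style alone, which need no covariate, the medians were 0.30 and 0.28. There 29 of 35 were above 0, beside 7239 of all 13663 genes. With the covariate the smallest p was 0.0931, for Hsd17b7 (0.65 ± 0.37), and edgeR called 4 genes in all (0.0283%). In tumour 20 of 35 were above 0, beside 7140 of all 14117 genes. The medians were 0.15 and 0.01, and edgeR again called 4 genes (0.0283%). Without the code style the direction turned, with 9 of 35 above 0 and medians of -0.24 and -0.41. Tumour libraries of the first style alone gave 22 of 35 above 0, beside 6551 of all 13663 genes, with medians of 0.08 and 0.15. Library size alone moved the median of all genes to -0.13 in the peritumour and -0.11 in the tumour contrast, and the branch medians to 0.24 and 0.23, and to 0.03 and -0.09. With the covariate and TMM scaling, Scd2 had the smallest p in the tumour contrast, with -1.04 ± 0.55 (edgeR adjusted p = 0.548). These contrasts share the libraries of the paired comparison, and 3 M animals give wide errors.

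Other genes of both pathways, from lists of textbook members, were counted in the same fit. Of all genes tested, that fit called 11.5% (5.91% lower and 5.59% higher). Of 19 other sterol genes 2 were lower and 1 was higher, with a median log2 fold change of -0.00. Ebp, a sterol isomerase, fell by 0.32 ± 0.09 on the log2 scale (edgeR adjusted p = 0.0299), with 11 of 14 animals lower. Scap, the escort of the SREBP precursors, rose by 0.27 ± 0.08 (edgeR adjusted p = 0.0406) in 12 of 14 animals. Of 26 other genes of fatty acid and triglyceride synthesis 4 were lower and none was higher, with a median of -0.15. Idh1, a cytosolic source of NADPH, fell by 0.49 ± 0.09 (edgeR adjusted p = 0.0047) in 14 of 14 animals. Ppp1r3b, a glycogen-targeting subunit of a protein phosphatase and so not a lipid enzyme itself, fell by 0.60 ± 0.10 (edgeR adjusted p = 0.0027), also in all 14. Of 11 lipid droplet and uptake genes 3 were lower, among them the fatty acid binding protein Fabp1 (-0.53 ± 0.12, edgeR adjusted p = 0.0107) and the fatty acid receptor Cd36 (-0.83 ± 0.20, edgeR adjusted p = 0.016).

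Markers of the cells in the tissue were read beside these falls, in the same fit with 5.91% of all genes lower. Of 10 hepatocyte markers 5 were lower in tumour, with a median log2 fold change of -0.51, and their summed level was 19690 to 62840 CPM (median 45330) in peritumour tissue and 22610 to 50600 CPM (median 32520) in tumour. Cyp2e1 fell by 1.41 ± 0.20 on the log2 scale (edgeR adjusted p = 0.00091) and the aminotransferase Tat by 0.79 ± 0.14 (edgeR adjusted p = 0.0027). Alb, Cps1 and Hpd also fell. Of the other 5, Apob gave -0.56 ± 0.18 (edgeR adjusted p = 0.0505), Ttr -0.27 ± 0.13, Serpina1c -0.16 ± 0.13, Hnf4a 0.00 ± 0.11 and Apoa1 0.24 ± 0.17. Their part in the lipid gene results was not tested. The 6 adipocyte markers measured summed to 179 to 1163 CPM (median 616) in peritumour tissue and 97.3 to 1037 CPM (median 419) in tumour. Only 2 of them passed the filter, and the 1 that fell, Pck1, is also a hepatocyte gene. Pck1 alone had a mean of 660 CPM in peritumour tissue and 422 CPM in tumour, so these sums are mostly Pck1. Of 7 macrophage markers 3 were lower, with summed ranges of 293 to 710 CPM and 180 to 1058 CPM, and of 7 stellate cell and fibroblast markers 3 were lower, with 351 to 1156 CPM and 177 to 1318 CPM. None of 6 cholangiocyte, 10 blood precursor, 6 T cell or 6 proliferation markers passed. Cholangiocyte markers summed to 34.7 to 307 CPM in peritumour tissue and 21.8 to 1942 CPM in tumour, the highest in F2. Blood precursor markers summed to 133 to 1327 CPM (median 368) in peritumour tissue, highest in F5, and 112 to 1743 CPM (median 252) in tumour, highest in F4. Proliferation markers summed to 157 to 656 CPM (median 328), again highest in F5, and 141 to 774 CPM (median 417), highest in F2. No marker was at 0 in every library of a tissue, and the part of these cells in the lipid gene results was not tested.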

How the data were processed

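Per the labels' protocols, RNA was extracted with Trizol and mRNA selected with oligo(dT) beads before random-primed cDNA synthesis. Tools listed, with no role, are RSEM 1.2.12, HISAT2 2.0.4, DESeq2 1.4.5 and Bowtie2 2.2.5, per the submitters' processing notes. Per the file headers, the deposited table holds estimated counts and TPM for each gene and library. Of the estimated counts, 8.06% are not whole. They were rounded, and 3 mean columns of a further group, Li, were not used here. Counts per 1000000 (CPM) of each library describe levels.

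edgeR 4.0.16 in R 4.3.3 was used with TMM factors (0.809 to 1.36), filterByExpr (14117 genes) and a robust quasi-likelihood fit. The Benjamini-Hochberg adjustment took in all of these genes, and the threshold was 0.05. The animal was a block. The labels do not say outright that a title code is an animal, and p-values measure the spread between these pairs. As a check, values were taken as deviations from the mean of the libraries of the same group and code style. The 2 libraries of a code then correlated over genes at 0.135 to 0.61 in all 14 pairs, against a median of -0.02 for unpaired libraries. Of the tumour libraries 10 of 14 correlated best with the peritumour library of their own code, and 4 with another. The biological coefficient of variation was 0.27 with the block and 0.38 without. Contrasts between letters within a tissue used a fit of the 4 groups with code style as a covariate. It had the same style term for both tissues and no animal block. The letter interaction kept the animal as a block and had no term for code style. The scripts were tested on simulated data.

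Genes, lists, the paired design and the rule for named genes (all 35, and up to 2 higher and 2 lower genes of each other list) were chosen with earlier results of these data known. Elovl1, Elovl2, Elovl3, Elovl7 and the remaining hepatocyte markers were named beyond that rule. Of the listed markers Lep and Trac had no match, and Plin2, on 2 gene IDs, was left out. Values of 2 genes of the other sterol list are not reported here.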

Additional observations from a re-analysis of the deposited data

How the results depend on the processing

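Without the replicate block, that is without the pairing by title code, edgeR called 148 of all genes, and 0 fatty acid genes lower, 0 sterol genes lower and 0 higher. Of the 12 genes that passed, 9 kept their call in each of the 14 fits without 1 pair. Over these fits the calls ranged from 899 (without F8) to 1957 (without F2) for all genes, from 4 to 6 lower and 0 to 1 higher for the fatty acid branch, and from 4 to 8 lower and 1 to 2 higher for the sterol branch. Genes that passed in addition were Scd2 and Stard4 without F2, Mlxipl without F4, and Msmo1 and Nsdhl without F5. The count over all genes was 992 without F7 and 927 without F9. Branch medians ranged from -0.22 to -0.10 and from -0.17 to -0.01. Scd2 made 1 fatty acid gene higher with DESeq2, with library size alone and in F pairs alone, where 3 sterol genes were lower and Scd1, Hsd17b7, Sc5d and Insig1 no longer passed. With no filter on low counts Scd1 and Hsd17b7 did not pass. In M pairs alone, and in the first code style alone, edgeR called 0 genes in all and so 0 in each branch (1333 and 1199 at an unadjusted p under 0.05). In M pairs alone Srebf2 reversed to -0.0508 (edgeR adjusted p = 0.91). The second style alone called 981 genes, with 2 fatty acid genes lower and 1 higher, and 0 sterol genes lower and 2 higher. Without F pairs 2, 5 and 6 edgeR called 14.9% of 13831 genes. The sterol branch then had 7 lower and 0 higher, with a median of -0.24. Msmo1 and Nsdhl passed in addition there (edgeR adjusted p = 0.0186 and 0.0266). For Tu_M against Tu_F, DESeq2 called 68 genes, and 7 were called without the code style. For the code style interaction DESeq2 called 2. In the letter comparisons only M animals were left out 1 at a time, which gave 3 to 4 genes for Pe_M against Pe_F, 4 to 5 for Tu_M against Tu_F and 0 to 0 for the letter interaction. The causes were not tested.

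Limits: title codes stand in for animals, M has 3 animals, and all M libraries share a code style. In simulated data some changes of 0.5 on the log2 scale were missed, so genes that did not pass are not shown to be unchanged.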
